A study of Mus musculus with 4 samples.

Results

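Cell junction genes were examined in the mammary glands of virgin control and *miR-21*-/- mice. The members were all gene names in the deposited table that belong to the claudins (*Cldn*), the zonula occludens scaffolds (*Tjp*), the connexins (*Gja* to *Gje*), the desmocollins and desmogleins (*Dsc*, *Dsg*), the plakophilins (*Pkp*) or the numbered cadherins (*Cdh*). This gave 85 of 22479 gene names, with the row of the highest mean level taken for a name with several rows. The data were poly(A) RNA-Seq of whole mammary gland from 4 mice of 2 months on a mixed 129SV, FVB/N and C57BL/6 background, 2 per genotype. The *miR-21*+/+ mice, called control below, carried the intact microRNA gene (miR21 +/+) and the others lacked it in every tissue (MiR21 -/-). The authors deposited a single FPKM value (read fragments divided by exon length and by the mapped total of the library) per locus and genotype, in which both mice are combined. The spread between mice is therefore unknown, no difference below has a replicate check, and no test was run.

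Neighbouring epithelial cells are held together by junctions stacked along their sides. Claudins seal the tight junction and set which ions pass between cells, and the zonula occludens scaffolds tie them to actin. Classical cadherins bind the same cadherin on the next cell and form the adherens junction. Desmogleins and desmocollins bridge the gap at desmosomes and are tied to keratin through plakophilins and desmoplakin. Connexins assemble into gap junction channels through which small molecules move from cell to cell. In the mammary gland the luminal cells line the duct with tight junctions, while the myoepithelial cells around them carry P-cadherin. Vessels, nerves, fibroblasts and fat of the same tissue use other members of these families. In such whole tissue, fewer cells of a type and less RNA per cell cannot be told apart.

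The deleted gene encodes miR-21, whose mature sequence (RefSeq, GRCm38.p6) is shown with its seed, bases 2 to 8, in capitals.
miR-21a-5p: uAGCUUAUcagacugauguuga
The longest annotated 3' UTR of each member was searched for ATAAGCT, the complement of the seed. None of the 39 members with a UTR and a mean of at least 1 FPKM held this match, against 6.96% of 12835 genes at that level. Among all 80 members with an annotated UTR, *Cdh9* held a single match and *Dsg1a* held a pair. The shorter match TAAGCTA, to bases 2 to 7 followed by A, was found in 2 of the 39 members of at least 1 FPKM, among them *Gja1*. The 2 sites below are read along the transcript, with the matched bases in capitals, and do not cover every member with a match.
Gja1: atttatttgaactgTAAGCTAaagacac
Cdh9: accctctttgcctaATAAGCTtggaaaa
In mm9 the matches lie in the 3' UTR exons at chr10:56109963-56109969 (plus strand) for *Gja1* and at chr15:16786220-16786226 (plus strand) for *Cdh9*. A match of letters is a description and says nothing on binding. Neither *Gja1* nor *Cdh9* differed by 1.5-fold, which does not hold for every member with a match. *Dsg1a*, whose sites are not shown, had 0.290 FPKM in control and 0.0234 in *miR-21*-/- glands, both low. The other member of at least 1 FPKM with the shorter match is not reported singly here. *Gja1* had 52.4 FPKM in control and 57.3 in *miR-21*-/- glands, and *Cdh9* had 0.943 and 1.01. The *Mir21* gene itself shares a locus with its host gene *Vmp1*, which had 42.5 FPKM in control and 68.2 in *miR-21*-/- glands. Poly(A) RNA does not measure the mature microRNA, so this value does not check the genotype labels.

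The junction genes with clear expression had more members on the higher side than on the lower side in *miR-21*-/- glands in the deposited scaling, with a summed level of 443 FPKM in control and 522 in *miR-21*-/- glands. The 85 names lay on 84 loci. *Cldn22* and *Cldn24* share a locus, and *Cdh29* is merged with *Cdhr4* and *Uba7*. The merged locus had 17.0 FPKM in control and 12.9 in *miR-21*-/- glands, cannot be assigned to *Cdh29*, and was left out, which leaves 83 loci. Of these, 44 had a mean below 1 FPKM, with 7 at 0 in both genotypes, and 39 had a mean of at least 1 FPKM. In *miR-21*-/- glands 29 of the 39 loci were higher and 10 lower, while 44.3% of the 13305 named loci at this level were higher. Differences of at least 1.5-fold were seen in 8 loci on the higher side (20.5%, against 5.04% of all named loci) and in 4 on the lower side (10.3%, against 5.84%). Low loci pass 1.5-fold more often. From 1 to 5 FPKM, 4 of 15 members were higher (9.25% of all named loci) and 3 lower (10.9%). From 5 FPKM up, 4 of 24 were higher (3.3%) and 1 was lower (3.74%). Of the 39 loci, 4 reached 1 FPKM in only one of the genotypes and passed through the genotype where they are higher, among them *Cldn6*, *Cldn11* and *Cldn23*. The median log2 ratio of *miR-21*-/- over *miR-21*+/+ was 0.25 over the 39 loci and −0.03 over all 13305, and it was 0.13 over the members with at least 1 FPKM in both genotypes. With the columns scaled to equal sums over all loci every log2 ratio is lower by 0.63, and the median of the members becomes −0.38. The median of all named loci falls by the same 0.63, so the members keep their place relative to it. Columns summed to 380567 FPKM in control and 355385 in *miR-21*-/- glands over named loci alone. Scaled to equal sums over named loci, the median of the members was 0.35. Ratios below are of the deposited values.

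**Figure D1:**
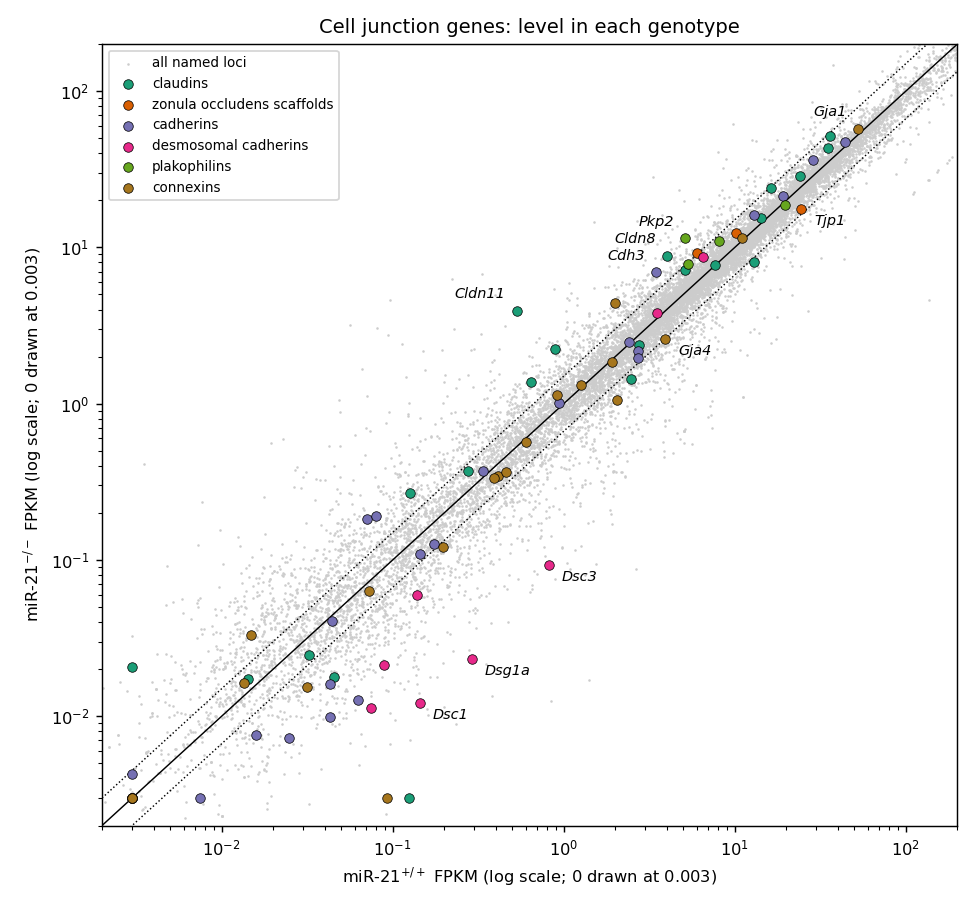
FPKM of the 83 junction loci in *miR-21*+/+ (horizontal) and *miR-21*-/- glands (vertical), both on log scales, by family, over all named loci in grey; loci above the axis ends are not drawn, and values of 0 sit at the lower edge. The solid line marks equal levels and the dotted lines 1.5-fold; *Cldn11* stands far above them at 0.530 and 3.91 FPKM, and *Dsc3* far below at 0.822 and 0.0927 FPKM.

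Among the claudins, the epithelial and endothelial members made up most of the RNA. *Cldn5*, the claudin of blood vessel endothelium, had 36.0 FPKM in control and 51.3 in *miR-21*-/- glands. *Cldn3*, a sealing claudin of luminal epithelium, had 35.1 and 43.0 FPKM. *Cldn4*, its neighbour on chromosome 5, had 24.0 and 28.6 FPKM. *Cldn7*, which lies along the sides of epithelial cells and binds EpCAM, had 16.3 and 23.8 FPKM. These 4 genes held 68.3% of the claudin FPKM in control and 71.2% in *miR-21*-/- glands, and each was higher in *miR-21*-/- glands by 1.19-fold to 1.46-fold. *Cldn1*, the claudin of the skin barrier, had 5.10 and 7.15 FPKM, and *Cldn8*, a claudin of tight epithelia such as the renal collecting duct, had 4.01 and 8.83 FPKM. The ratio for *Cldn8* was 2.20-fold, above all other claudins with a mean over 5 FPKM.

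Of the 4 claudins past 1.5-fold on the higher side, the 3 besides *Cldn8* were low in the gland. *Cldn11*, known from central myelin and from the Sertoli cells of the testis, had 0.530 FPKM in control and 3.91 in *miR-21*-/- glands (chromosome 3, 31048842 to 31063248 in mm9). Its ratio of 7.39-fold (log2 ratio 2.89) was the highest of the 39 loci. Of all named loci with a mean of at least 1 FPKM, 0.271% were at least 4-fold higher. That share also covers loci far above the mean of 2.22 FPKM of *Cldn11*, and low loci pass 1.5-fold more often. *Cldn11* is among the 39 only through its value in *miR-21*-/- glands, so its rank and this share do not measure how unusual it is. On the log2(FPKM + 1) scale, which damps low values, the difference was 1.68. *Cldn6*, a claudin of embryonic epithelium, had 0.885 and 2.23 FPKM, and *Cldn23*, a single-exon claudin on chromosome 8, had 0.639 and 1.38 FPKM. Their ratios were 2.52-fold and 2.16-fold. *Cldn9*, which lies next to *Cldn6*, had 0.0142 and 0.0174 FPKM, too low to compare.

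Some claudins were lower in *miR-21*-/- glands. *Cldn10*, which forms ion-selective pores, had 12.9 FPKM in control and 8.05 in *miR-21*-/- glands, so that its level in control glands was 1.60-fold that in *miR-21*-/- glands. The shared locus of *Cldn22* and *Cldn24* had 2.48 and 1.44 FPKM, whose reads the table does not divide between the genes. *Cldn19*, a claudin of kidney and of Schwann cells, had 2.74 and 2.37 FPKM. *Cldn15*, a sodium pore of the gut that mesothelium and other tissues express too, and *Cldn12* were close to equal at 14.2 and 15.4 FPKM and at 7.64 and 7.69 FPKM. Over the 14 claudin loci with a mean of at least 1 FPKM, 11 were higher and 3 lower, with a median log2 ratio of 0.39 (−0.24 with the columns scaled to equal sums over all loci). *Cldn6*, *Cldn11* and *Cldn23* passed through the genotype where they are higher, and with at least 1 FPKM in both genotypes the median was 0.25. The other 10 claudin loci were below 1 FPKM, among them *Cldn2*, a leaky-epithelium claudin, at 0.275 and 0.368 FPKM, and *Cldn16*, *Cldn18* and *Cldn27*, which were listed at 0 in both genotypes.

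The scaffolds under the claudins did not share a direction. *Tjp1* had 24.5 FPKM in control and 17.6 in *miR-21*-/- glands, and *Tjp3*, the member largely limited to epithelia, had 5.99 and 9.16. *Tjp1* held 60.2% of the FPKM of the family in control and 45.0% in *miR-21*-/- glands, and *Tjp3* held 14.7% and 23.4%. The ratio of *Tjp3* was 1.53-fold, just over the limit of 1.5-fold. The authors' table marks the model of *Tjp1* as failed, as it does for *Cldn12* and *Pkp4*, so these values carry an added doubt. An exon of *Tjp3* overlaps 40 bases of *Apba3* on the opposite strand, and the table does not state whether reads were counted by strand. Such overlaps on the opposite strand also touch *Cldn3* (40 bases of *Wbscr25*), *Cldn19* (90 bases of *Gm12927*), *Cdh24* (284 bases of *CT009512.1*) and *Dsg2* (330 bases of *Gm16090*), so reads of these pairs may not be told apart.

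Among the cadherins, the order of levels was *Cdh5*, *Cdh1*, *Cdh11*, *Cdh13* in both genotypes. *Cdh5*, the VE-cadherin of endothelium, had 43.8 FPKM in control and 47.3 in *miR-21*-/- glands. *Cdh1*, the E-cadherin of epithelium, had 28.6 and 36.2 FPKM (1.27-fold). *Cdh11*, a cadherin of mesenchymal cells, had 19.2 and 21.4 FPKM. *Cdh13*, the T-cadherin that is anchored by a lipid and binds adiponectin, had 13.0 and 16.2 FPKM. None of these 4 reached 1.5-fold. *Cdh3*, the P-cadherin of myoepithelial and basal cells, had 3.47 and 6.93 FPKM, a ratio of 1.99-fold. *Cdh3* and *Cdh1* are neighbours on chromosome 8 (109034765 to 109080955 and 109127268 to 109194146), and the ratio was larger for *Cdh3*.

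The cadherins of other cells were low. *Cdh2*, the N-cadherin of nerve and mesenchyme, had 2.72 FPKM in control and 2.17 in *miR-21*-/- glands. *Cdh19*, which marks Schwann cell precursors, had 2.41 and 2.48 FPKM. *Cdh24* had 2.71 and 1.96 FPKM in the row used here and 0.993 and 0.877 in a second row with the same coordinates. *Cdh15*, the M-cadherin of muscle precursors, had 0.0798 and 0.192 FPKM. In *miR-21*-/- glands 6 of the 8 cadherin loci with a mean of at least 1 FPKM were higher and 2 lower. Their median log2 ratio was 0.13 (−0.50 with the columns scaled to equal sums over all loci). The other 15 were below 1 FPKM, and with these included, where above 0 in both genotypes, the median was −0.039.

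**Figure D2:**
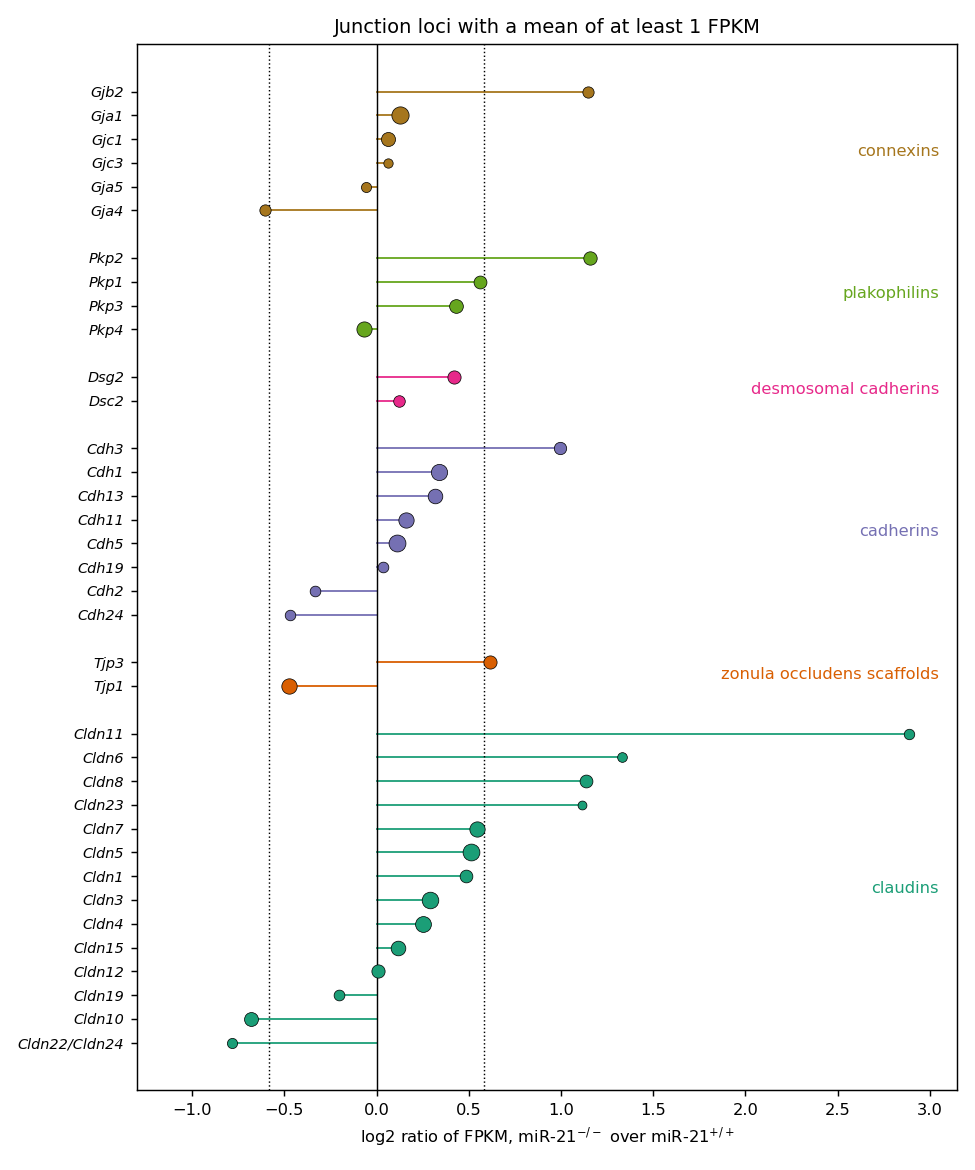
Log2 ratio of FPKM, *miR-21*-/- over *miR-21*+/+, for 36 of the 39 junction loci with a mean of at least 1 FPKM, by family and ordered within it; larger points have a higher mean FPKM and dotted lines mark 1.5-fold. *Cldn11* is the highest at 2.89 and the shared locus of *Cldn22* and *Cldn24* the lowest drawn at −0.78, and scaling the columns to equal sums over all loci would move every point by −0.63.

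The desmosomal cadherins showed a split within a single gene cluster. All 9 lie on chromosome 18, between 20119431 and 20763027 in mm9, in the order *Dsc3*, *Dsc2*, *Dsc1*, *Dsg1c*, *Dsg1a*, *Dsg1b*, *Dsg4*, *Dsg3*, *Dsg2*. *Dsg2* and *Dsc2*, the pair used by simple epithelia, were the abundant members. *Dsg2* had 6.52 FPKM in control and 8.73 in *miR-21*-/- glands, and *Dsc2* had 3.50 and 3.81. They were higher in *miR-21*-/- glands by 1.34-fold and 1.09-fold.

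The desmosomal cadherins known from stratified epithelium and skin were all below 1 FPKM, and those detected were lower in *miR-21*-/- glands. *Dsc3*, a desmocollin of basal layers, had 0.822 FPKM in control and 0.0927 in *miR-21*-/- glands, a level 8.86-fold higher in control. *Dsg1a*, which is part of the cornified layers of the epidermis, had 0.290 and 0.0234 FPKM. *Dsc1*, its partner in these layers, had 0.144 and 0.0122 FPKM. *Dsg3*, the basal desmoglein of skin and mouth, had 0.139 and 0.0593 FPKM. *Dsg1b* had 0.0884 and 0.0212 FPKM and *Dsg1c* had 0.0749 and 0.0112 FPKM. *Dsg1a*, *Dsg1b* and *Dsg1c* are near-identical copies whose reads may be shared, so their separate values are uncertain. *Dsg4*, a desmoglein of hair, was listed at 0 in both genotypes.

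The reads behind these low values are not given and can only be approximated. In single-exon genes the commonest low value, taken per base, may be the worth of 1 read, though in *miR-21*-/- glands it stood out little (11 genes, against 8 in the next interval). If so, it puts the value of *Dsc3* at about 211 reads in control and 19.4 in *miR-21*-/- glands, and that of *Dsg1a* at about 79.8 and 5.26. For *Dsc1* these were 26.4 and 1.82, so its ratio is poorly set. Of all named loci with a mean between 0.05 and 1 FPKM, 5.25% were at least 4-fold lower in *miR-21*-/- glands. Among the desmosomal cadherins in that range, *Dsc1*, *Dsc3*, *Dsg1a* and *Dsg1b* were such loci and *Dsg3* was not. They lie in the same cluster, and *Dsg1a* and *Dsg1b* may share reads, so they are not separate observations.

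**Figure D3:**
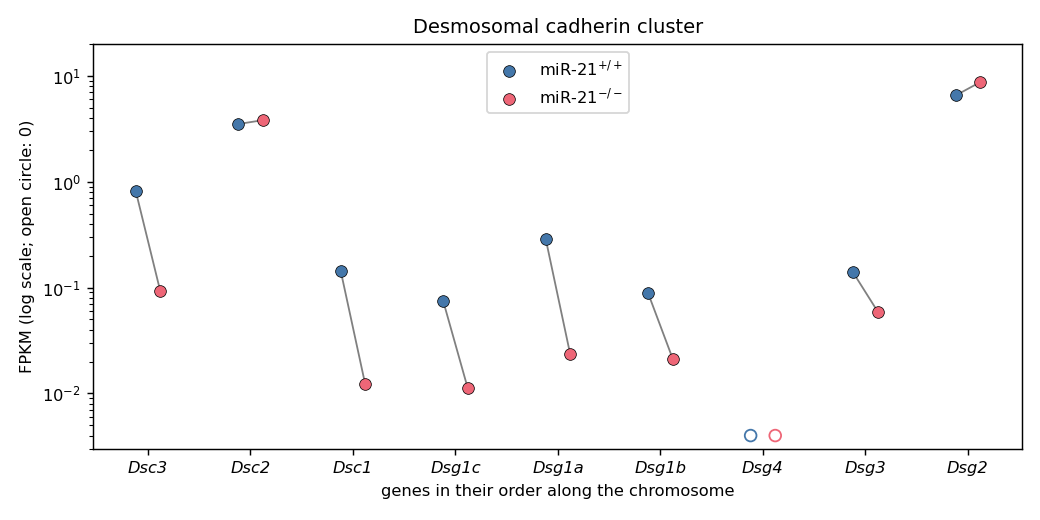
FPKM on a log scale of the 9 desmosomal cadherins in *miR-21*+/+ (blue) and *miR-21*-/- (red) glands, in gene order along the chromosome; open circles mark 0. *Dsc2* and *Dsg2* differ little and stand at 3.50 to 8.73 FPKM, while the 6 other detected genes are below 1 FPKM and lower in *miR-21*-/- glands.

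Genes of cornified epidermis were lower in the same glands. The cornified layer keratin *Krt10* had 5.70 FPKM in control and 1.98 in *miR-21*-/- glands, *Krt1* had 0.653 and 0.0688, the loricrin gene *Lor* had 1.16 and 0.115, and the filaggrin relative *Flg2* had 1.40 and 0.0172. *Krt2* was listed at 0 in both. The summed level of these 5 markers was 8.91 FPKM in control and 2.18 in *miR-21*-/- glands. Their part in the low values of *Dsc1*, *Dsc3* and the *Dsg1* genes was not tested. *Gjb6*, a connexin of skin, had 0.388 and 0.336 FPKM.

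Among the plakophilins, which link desmosomal cadherins to desmoplakin, the 3 desmosomal members were higher in *miR-21*-/- glands. *Pkp2*, the plakophilin of heart and simple epithelia, had 5.12 FPKM in control and 11.4 in *miR-21*-/- glands (2.23-fold, chromosome 16). *Pkp1*, of stratified epithelia, had 5.33 and 7.86 FPKM, and *Pkp3*, which occurs in most epithelia, had 8.12 and 10.95 FPKM. *Pkp2* was the lowest of these 3 in control and the highest in *miR-21*-/- glands. *Pkp4*, which is found at adherens junctions and also outside epithelia, had 19.7 and 18.8 FPKM. The median log2 ratio of the 4 was 0.50 (−0.13 with the columns scaled to equal sums over all loci). *Yars2* and *Dnm1l*, the nearest named genes on the side of higher coordinates, were at 7.13 and 5.78 FPKM and at 25.5 and 24.3 FPKM. On the other side, *Cebpd* was at 5.57 and 7.93 FPKM, on the higher side like *Pkp2*, and *2310008H04Rik* was at 6.14 and 5.91 FPKM.

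Among the connexins a single gene held most of the RNA. *Gja1*, the connexin of myoepithelial cells, fibroblasts and many other cells, held 67.4% of the connexin FPKM in control and 69.0% in *miR-21*-/- glands. *Gjc1*, of vessel walls and other tissues, followed at 11.01 and 11.5 FPKM. *Gjb2*, a connexin of luminal mammary epithelium, had 2.00 and 4.43 FPKM, a ratio of 2.21-fold. *Gjb6*, which lies beside it on chromosome 14, was low in both genotypes, as given above. *Gjb1*, another connexin of the secretory gland, had 0.413 and 0.346 FPKM.

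Other connexins belong to vessels, nerve and stratified epithelia. *Gja4*, a connexin of arterial endothelium, had 3.93 FPKM in control and 2.58 in *miR-21*-/- glands (1.52-fold higher in control). *Gjb5*, of stratified epithelia, had 0.197 and 0.121 FPKM. *Gja5*, the other arterial connexin, had 1.91 and 1.84 FPKM, and *Gjc3*, of Schwann cells, had 1.26 and 1.32 FPKM. Exons of *Gja5* overlap 165 bases of *Gpr89* on the opposite strand. The 8 connexin loci with a mean of at least 1 FPKM had a median log2 ratio of 0.06 (−0.57 with the columns scaled to equal sums over all loci), with 5 higher and 3 lower. The other 12 were below 1 FPKM, such as *Gja3* of the lens, under 0.05 FPKM in both genotypes, and *Gjd2* of neurons, which was at 0 in both genotypes.

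Members were also sorted by the cells that usually express them, in lists written with earlier results of these data known. The lists do not hold every member, and the counts depend on them. Among the members in no list, *Cldn10*, the shared locus of *Cldn22* and *Cldn24*, and *Tjp1* were lower in *miR-21*-/- glands. Others in no list, such as *Cldn6* and *Cldn23*, were higher. The listed epithelial members were mostly higher. Of 16 epithelial members, 15 had a mean of at least 1 FPKM. Of these, 14 were higher in *miR-21*-/- glands (93.3%, against 44.3% of all named loci) and 1 was lower. At least 1.5-fold higher were 5 (33.3%, against 5.04%), namely *Pkp2*, *Gjb2*, *Cldn8*, *Cdh3* and *Tjp3*. The 1 lower member was past 1.5-fold too (6.67%, against 5.84%). The median log2 ratio of the 15 was 0.49 (−0.03 for all named loci), and their summed level was 155 FPKM in control and 212 in *miR-21*-/- glands. Epithelial markers were higher too. All 6 luminal markers were higher, with a summed level of 601 and 830 FPKM and a median of 0.58, from *Krt19* at 0.15 to *Elf5* at 0.95. All 4 basal and myoepithelial markers on loci of their own were higher as well, with a summed level of 64.9 and 118 FPKM and a median of 0.61. *Krt14* shares a locus with *Krt16*, which had 22.9 and 38.7 FPKM. None of these markers was at 0. The part of the epithelial share of the tissue in the junction gene values was not tested.

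Set beside the luminal keratin *Krt8*, which was 1.65-fold higher, *Cldn3*, *Cldn4* and *Cdh1* had smaller ratios (1.22-fold, 1.19-fold and 1.27-fold). *Cldn8*, *Gjb2* and *Pkp2* had larger ones (2.20-fold to 2.23-fold). Beside *Krt19*, at 1.11-fold, *Cldn3*, *Cldn4* and *Cdh1* had larger ratios, so their order depends on the marker chosen. *Epcam*, a luminal surface protein, had 59.0 and 83.6 FPKM, a ratio of 1.42-fold, close to the 1.46-fold of *Cldn7*. *Oxtr*, the oxytocin receptor of myoepithelial cells, had 17.5 and 48.7 FPKM and *Trp63*, the basal transcription factor, 5.74 and 9.30 FPKM, beside the 1.99-fold of *Cdh3*. The 4 basal and myoepithelial markers on loci of their own ranged from 0.50 to 1.47 in log2 ratio, against 1.00 for *Cdh3*.

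By their medians, junction members of other cells were close to equal as groups, while their summed levels were higher in *miR-21*-/- glands. The 5 vascular members had a median log2 ratio of 0.06, with *Cldn5* at 0.51 and *Gja4* at −0.60 as the extremes. Their summed levels were 96.7 FPKM in control and 114 in *miR-21*-/- glands. The 7 endothelial markers had a median of 0.03 and summed levels of 139 and 144 FPKM. The 4 mesenchymal and muscle members with a mean of at least 1 FPKM ranged from −0.33 for *Cdh2* to 0.32 for *Cdh13*. Their median was 0.14 and their summed levels were 87.3 and 97.0 FPKM. Fibroblast markers had a median of −0.16 and summed levels of 4956 and 4388 FPKM. The Schwann cell and nerve members were near equal apart from *Cldn11*, with *Gjc3* at 0.06, *Cdh19* at 0.04 and *Cldn19* at −0.21. With *Cldn11*, the summed levels of those with a mean of at least 1 FPKM were 6.94 and 10.1 FPKM. Of the myelin and Schwann cell markers, *Mbp* had 53.9 and 50.8 FPKM, while *Sox10* had 16.4 and 36.1. Neither *Cldn19* nor *Gjc3* shared the difference of *Cldn11*.

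**Figure D4:**
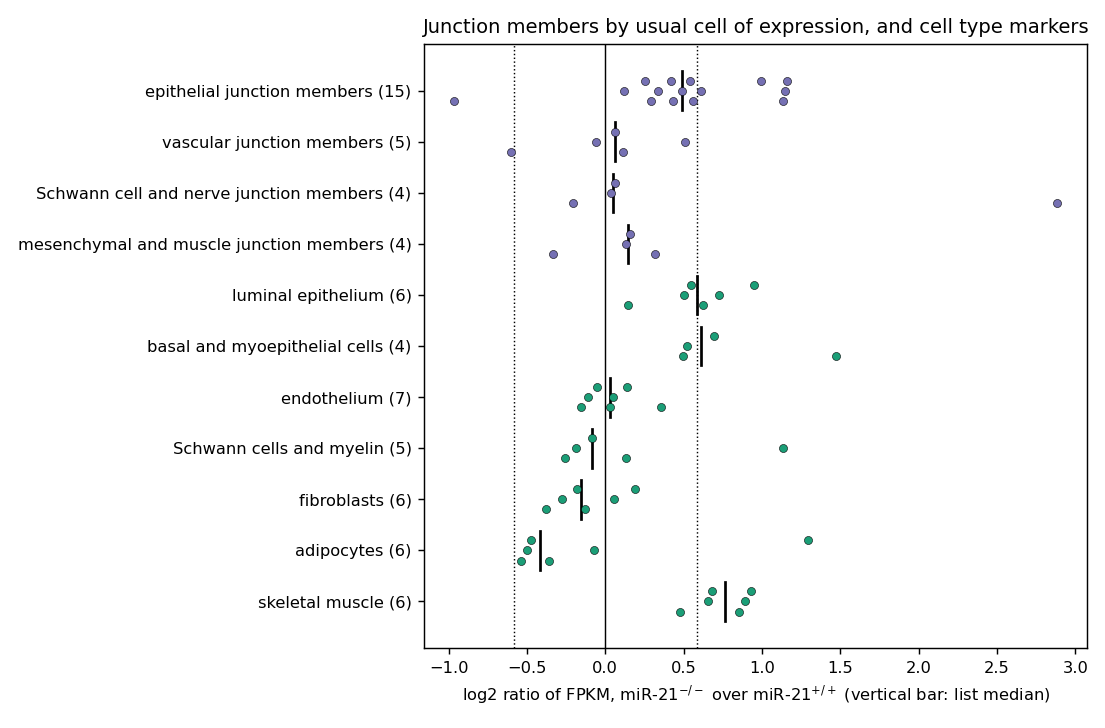
Log2 ratio of FPKM, *miR-21*-/- over *miR-21*+/+, for junction members grouped by usual cell of expression (purple) and for cell type markers (green), each point a gene with a mean of at least 1 FPKM, with the number of genes in brackets, list medians as vertical bars and 1.5-fold as dotted lines. Epithelial junction members (median 0.49) lie near the luminal (0.58) and basal (0.61) markers, and vascular members (0.06) near endothelial markers (0.03); scaling to equal sums over all loci would move every point by −0.63.

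Other cell types of the gland were followed by their markers too. In *miR-21*-/- glands 5 of 6 adipocyte markers were lower. Their median log2 ratio was −0.42, with summed levels of 10930 and 7999 FPKM, *Lep* being the exception. All 6 skeletal muscle markers were higher (median 0.77, summed levels 1113 and 1849 FPKM). The 5 lymphocyte markers on loci of their own were lower (median −2.57, summed levels 40.2 and 6.99 FPKM). The part of these differences in the junction gene values was not tested.

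The partners of the junction proteins were taken from lists of their own. Of 11 adherens junction partners with a mean of at least 1 FPKM, 10 were higher in *miR-21*-/- glands (44.3% of all named loci). *Pvrl4*, the epithelial nectin, was the single locus past 1.5-fold (6.64 and 10.8 FPKM), beside 5.04% of all named loci on the higher side. The more abundant catenins differed little. *Ctnnb1*, which binds the cadherin tail, had 150 and 167 FPKM, and *Ctnna1*, which links it to actin, had 72.3 and 78.9 FPKM. *Ctnna2* and *Ctnna3*, catenins of nerve and of heart and testis, were below 1 FPKM, at 0.0368 and 0.0274 FPKM and at 0.236 and 0.345 FPKM. Among the desmosome partners, *Dsp*, the desmoplakin that anchors keratin, had 8.74 and 11.7 FPKM, *Perp*, a desmosomal membrane protein, had 16.2 and 23.9 FPKM, and *Ppl*, the plakin periplakin, had 3.78 and 5.02. *Evpl*, a plakin of the cornified envelope, was lower, at 2.32 and 1.39 FPKM.

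Of 18 tight junction partners with loci of their own, in *miR-21*-/- glands 15 were higher and 3 lower (median 0.31), beside 44.3% of all named loci that were higher. At least 1.5-fold higher were 4 of them, beside 5.04% of all named loci. *Cxadr*, an adhesion protein near the tight junction, had 12.01 and 22.04 FPKM, *Ocln*, the membrane protein occludin, had 3.21 and 5.09, *Marveld2*, which sits where 3 cells meet, had 3.13 and 4.98, and *Pard6b*, of the polarity complex, had 1.55 and 2.70. *F11r*, the adhesion molecule of epithelial tight junctions, had 25.4 and 31.4 FPKM. *Cgnl1*, which is found in endothelium as well, was lower, at 33.9 and 26.8 FPKM. *Panx1*, the one pannexin with a mean of at least 1 FPKM, had 3.38 and 3.37 FPKM.

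Of 11 transcription factors known to control junction genes with loci of their own and a mean of at least 1 FPKM, 6 were higher and 5 lower (median 0.01). Of all named loci, 44.3% were higher. The epithelial activators *Elf3*, with 7.57 and 12.2 FPKM, and *Grhl1*, with 7.81 and 12.3 FPKM, were over 1.5-fold higher in *miR-21*-/- glands. So was *Ovol2*, at 0.941 and 1.74 FPKM, which reached 1 FPKM only in the genotype where it is higher. These were 27.3% of the 11, beside 5.04% of all named loci. *Twist1* was the 1 factor past 1.5-fold on the lower side (1.55-fold higher in control). That was 9.09% of the 11, beside 5.84% of all named loci. Repressors of E-cadherin did not share a direction. *Snai1* had 7.17 and 5.11 FPKM, *Snai2* 7.20 and 10.6, *Zeb1* 19.1 and 14.6, and *Twist1* 22.1 and 14.2. *Klf4*, a factor of epithelial barriers, had 20.7 and 20.8 FPKM.

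**Figure D5:**
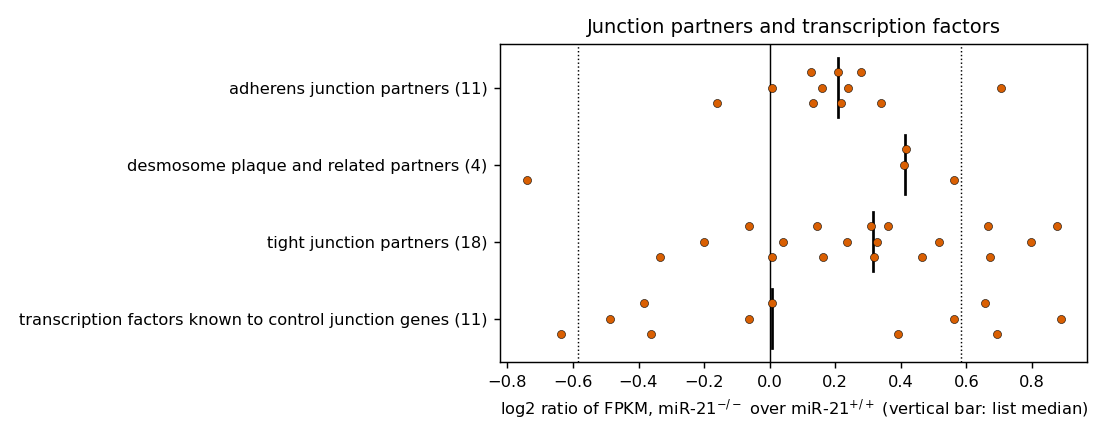
Log2 ratio of FPKM, *miR-21*-/- over *miR-21*+/+, for partners of junction proteins and for transcription factors, each point a gene with a mean of at least 1 FPKM, with list medians as vertical bars and 1.5-fold as dotted lines. The tight junction partners reach 0.88 (*Cxadr*) and the transcription factors spread from −0.64 (*Twist1*) to 0.89 (*Ovol2*); scaling to equal sums over all loci would move every point by −0.63.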

How the data were processed

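Poly(A) RNA of 4 mammary glands, 2 per genotype, was sequenced as single-end reads. The deposited FPKM values were estimated by the authors with Cufflinks after alignment to mm9 with TopHat, both mice of a genotype combined, for 30506 loci (22483 named). Versions and counting by strand are not given in the sources used here. Columns of the authors' fold changes, p-values and calls were not used. The mark of a failed model was read as a quality mark.

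Log2 ratios of FPKM were taken without a pseudocount for loci with a mean of at least 1 FPKM, and 1.5-fold was the limit for a count. Columns summed to 759295 (*miR-21*+/+) and 1175603 FPKM (*miR-21*-/-) over all loci, and to 380567 and 355385 over named loci. The commonest low product of FPKM and length in 1188 single-exon genes over 800 bases was 20.7 and 25.3 (15 and 11 genes). If this is 1 read, depth was about 48400000 and 39500000 reads, and reads per gene follow from the longest transcript (counting error only).

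Members with a mean of at least 5 FPKM or past 1.5-fold were named by rule, and others after their values were seen. Members and lists were chosen with earlier results of these data known. The 3' UTRs came from the mm9 GENCODE annotation, and coordinates count from 1. Alternatives were other pseudocounts, minimums, fold limits, scalings, summed rows and site types, and, added after seeing the data, dropping failed loci. Scripts were tested on simulated data (Python 3.11.15, numpy 2.4.6, pandas 2.3.3, matplotlib 3.10.9). Some members and markers are counted but not reported singly here.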

Additional observations from a re-analysis of the deposited data

How the results depend on the processing

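No paired analysis was possible because both mice of a genotype are combined in 1 column, and no mouse could be left out. Depth is known only from the steps of low values. The 8 loci at least 1.5-fold higher and 4 lower became 15 and 7 at a smaller fold limit, and 6 and 0 at 2-fold. With a mean of at least 5 FPKM they were 4 and 1, and with at least 1 FPKM in both columns 5 were higher. Without a minimum 12 were higher and 18 lower. With a pseudocount of 1, 6 were higher and 1 lower, and with equal sums over named loci 12 and 2. With equal sums over all loci, 2 were higher and 12 lower, which follows from its shift. Shares of all named loci are given only for the main setting and for a mean of at least 5 FPKM. The other counts have no such share beside them, so they describe the setting and not the members against other genes. That scaling gave a median log2 ratio of −0.38 for all members, and of −0.50 for cadherins, −0.24 for claudins, −0.57 for connexins, −0.36 for desmosomal cadherins, −0.13 for plakophilins and −0.35 for the zonula occludens scaffolds. Without a minimum the medians were 0.060 for all members, −0.039 for cadherins, −0.072 for connexins and −2.40 for desmosomal cadherins, from the added low loci. With a mean of at least 5 FPKM they were 0.32 for cadherins and 0.42 for desmosomal cadherins (1 locus). With at least 1 FPKM in both columns they were 0.13 for all members and 0.25 for claudins. With the shorter match included, 2 members of at least 1 FPKM held a miR-21 seed match, in place of 0. Without the loci marked as failed the median of all members was 0.29, with counts of 8 and 4. For the 31 members followed singly, the direction of *Pkp4* changed with equal sums over named loci (0.033, from −0.066) and no other did under the pseudocounts, summed rows and the scalings to named loci, while 10 moved by over 0.1 with a pseudocount of 1 and 2 with a pseudocount of 0.1.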

Other observations

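The genes around *Cldn11* did not share its difference. Within 200 kb, *Prkci* had 22.9 FPKM in control and 24.5 in *miR-21*-/- glands, *Skil* had 8.81 and 9.07, *Phc3* had 10.7 and 11.2, and *Slc7a14* had 1.34 and 1.46. A locus without a gene name on chromosome 3 from 31242719 to 31243078 was listed at 0 in control and had 1.09 FPKM in *miR-21*-/- glands.

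Of the 83 junction loci, 29 lay in 9 groups of neighbours no more than 200 kb apart. Neighbours often differed in level. *Cldn1* had 5.10 FPKM in control glands and *Cldn16* beside it was at 0, and *Cldn8* had 4.01 FPKM and *Cldn17* beside it was at 0 there.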
